A study of Caenorhabditis elegans with 8 samples.

Results

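The proteasome subunit genes of the nematode Caenorhabditis elegans were followed through gametes and the first embryonic stages in polyadenylated RNA. Members were all genes of the deposited table whose sequence name carries a WormBase symbol of the form pas-, pbs-, rpt- or rpn- with a number. This gave 32 of the 21774 genes, 13 of the core particle (6 pas and 7 pbs genes) and 19 of the regulatory particle (6 rpt and 13 rpn genes). The annotated gene pas-1 was not analysed here. The samples were 2 libraries each of sperm, oocytes, 1-cell embryos and 2-cell embryos, from a study of the oocyte-to-embryo transition. All 8 libraries are labelled with the strain TX189(OMA-1::GFP), which carries a GFP-tagged OMA-1, and with 24 degrees Celsius. The protocol reads differently. It describes hand-picked oocytes of wild-type N2 hermaphrodites, sperm filtered from males of a fog-2(q71) background and activated with Pronase, and 1-cell embryos sorted by flow cytometry. For 2-cell embryos no collection step is given, and strain and collection cannot be told apart from stage. Nothing says that replicates came from separate cultures, and p-values measure only the spread between libraries.

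The proteasome is the protease that degrades ubiquitin-tagged proteins. Its core particle is a barrel of alpha and beta rings, and some of the beta subunits carry the proteolytic sites. The regulatory particle caps the barrel. Its base holds a ring of RPT ATPases, which unfold substrates and open the barrel, with the scaffolds RPN-1 and RPN-2 and ubiquitin receptors. Its lid holds RPN-11, the enzyme that removes ubiquitin chains. In C. elegans the first divisions depend on timed degradation of maternal proteins such as OMA-1.

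Values are the authors' RPKM, reads per kilobase of gene length, scaled to the reads of the library. Counts and depths were not used here. In the sperm and embryo libraries the commonest step among low values, taken as 1 read, gave rough depths of 1.76e+07 to 7.0e+07 reads, and by that measure a member's value rested on 266 reads or more. The oocyte libraries showed no such clear step, and their depth is unknown. Between 12.7% and 29.4% of the genes were listed at 0 in the sperm and embryo libraries, against 2.48% and 2.93% in the oocyte libraries. Whether the oocyte values were made in the same way is not known, and each comparison with oocytes rests on them. Sperm markers summed to 8720 and 12425 RPKM in sperm, against 3.53 and 0.968 in oocytes, and oocyte markers to 803 and 187 RPKM in sperm, against 20168 and 19026 in oocytes. Sperm also held transcripts of other tissues. The 5 body wall muscle markers summed to 1716 and 2251 RPKM in sperm, against 32.7 and 21.1 in oocytes, with none at 0. Of this act-4 made up 1121 and 1166 RPKM in sperm and 31.5 and 20.4 in oocytes. Each of the others was also higher in both sperm libraries. The 5 cuticle markers summed to 457 and 1025 RPKM in sperm, against 4.30 and 11.1 in oocytes. Nearly all of this was col-140 and col-119, and dpy-7 had 0.145 and 0.0237 RPKM in sperm, against 0.798 and 0.0923 in oocytes. The 6 intestine and yolk markers summed to 446 and 76.2 RPKM in sperm, against 4.26 and 4.91 in oocytes. Of this asp-1 made up 374 and 72.9 RPKM, and in sperm replicate 2 vit-2 and vit-5 lay below both oocyte libraries. The 4 somatic gonad markers found summed to 29.2 and 29.3 RPKM in sperm, against 0.624 and 0.689 in oocytes. The 4 neuron markers found went the other way, with 104 and 126 RPKM in sperm, against 487 and 408 in oocytes. Most of this was snb-1, and rab-3 was higher in sperm. The part of these tissues in the sperm values was not tested.

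Proteasome transcripts were abundant in every library. Together the 32 genes made up 0.538% and 0.383% of the summed RPKM in sperm, 2.34% and 2.33% in the oocyte libraries, 1.63% and 2.06% at the 1-cell stage and 1.65% and 1.95% in 2-cell embryos. The median member ranked at percentiles 94.3 and 91.2 of the 11935 genes tested in the sperm libraries, and between 94.6 and 98.3 in the other 6. All 32 passed the filter for testing. The lowest member was rpn-6.1 in sperm and its paralog rpn-6.2 in the other groups.

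**Figure D1:**
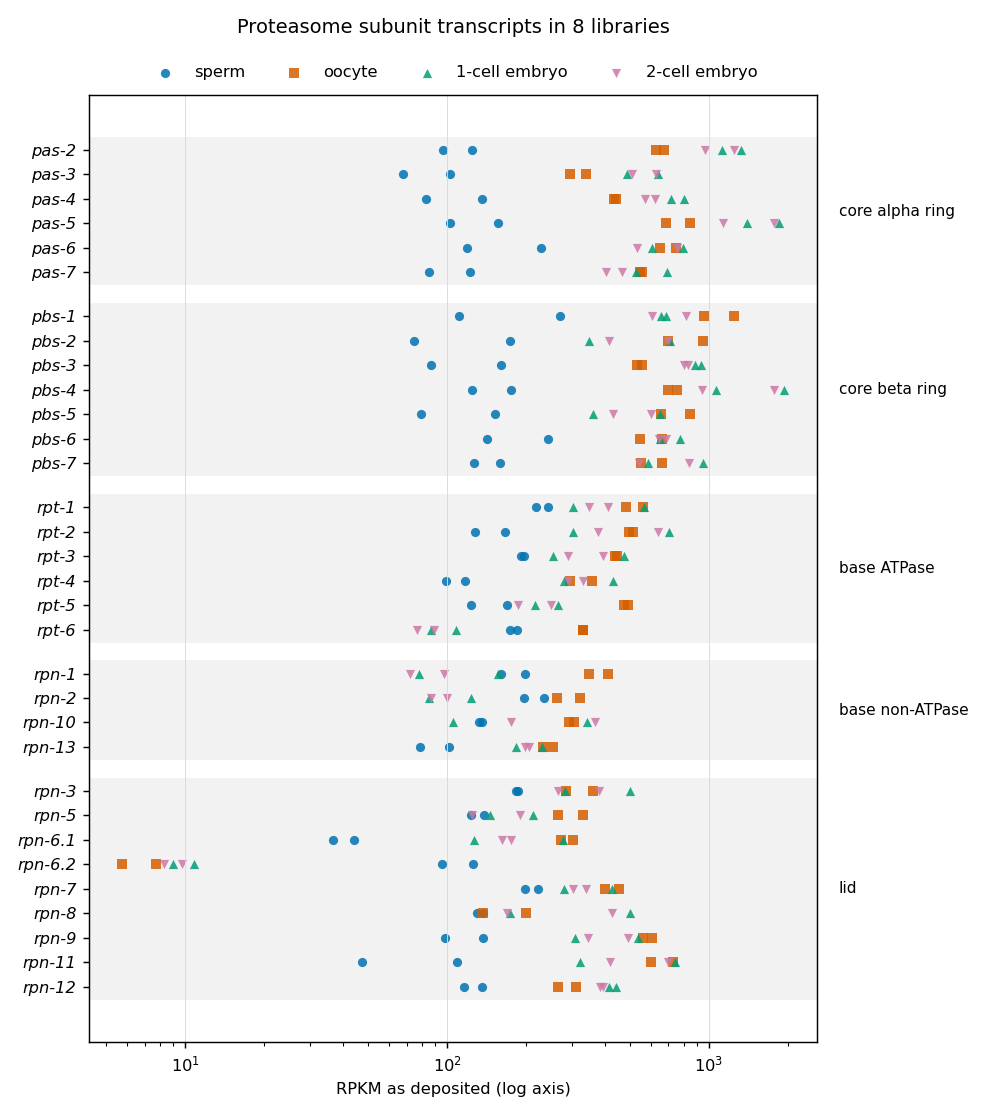
RPKM as deposited (log axis) of each proteasome subunit gene, grouped by its place in the particle; each symbol is 1 library, 2 per group. Sperm lies left of oocytes for 31 of the 32 genes, and rpn-6.2 is the exception.

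In oocytes the core genes averaged 711 and 606 RPKM per gene and the regulatory genes 351 and 372. RPKM is given per length, but its trend with length differed between libraries, so that levels of core genes and of the longer regulatory genes are compared only roughly. The highest mean was that of pbs-1, a catalytic beta subunit (1102 ± 205 RPKM, SD, n = 2), followed by the catalytic pbs-2 (820.2 ± 177) and the alpha subunit pas-5 (765 ± 116). pbs-1 lay above pbs-2 in both libraries, and pbs-2 and pas-5 differed by less than their SD. Within the ring of ATPases the highest gene was 1.68 and 1.70 times the lowest. Among the lid genes the deubiquitinase rpn-11 was highest at 664 ± 93.8 RPKM. Its structural partner rpn-8 stood at 168 ± 43.9, the lowest member in oocytes after rpn-6.2.

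The order of levels differed in sperm and in embryos. In sperm the highest means were those of the ATPase rpt-1 (231 ± 17.9 RPKM), the scaffold rpn-2 (215 ± 26.5) and the lid subunit rpn-7 (211 ± 17.6), whose libraries overlapped. By mean no core gene was among the first 4. In sperm replicate 1 alone the core genes pbs-1 (269 RPKM) and pbs-6 (243.5 RPKM) were highest, and in replicate 2 rpt-1 was (218 RPKM). In both embryo stages pas-5, pbs-4 and pas-2 were highest, with pas-5 at 1622 ± 326 RPKM in 1-cell and 1454 ± 453 in 2-cell embryos. The lowest after rpn-6.2 were rpt-6, rpn-1 and rpn-2, with means of 97.7, 117 and 104 RPKM in 1-cell embryos. The mean RPKM per core gene divided by that per regulatory gene was 1.10 and 0.736 in sperm, 2.03 and 1.63 in oocytes, 3.25 and 2.73 at the 1-cell stage and 2.80 and 2.94 at the 2-cell stage. Sperm, oocytes and embryos did not overlap in this ratio of means, and the embryo stages overlapped each other. With medians over the genes in place of means the ratio was 1.15 and 0.744 in sperm, 2.28 and 1.75 in oocytes, 2.69 and 2.10 at the 1-cell stage and 2.42 and 2.08 at the 2-cell stage, so that oocytes and embryos overlapped and sperm still lay lowest. No test was made of these ratios.

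**Figure D2:**
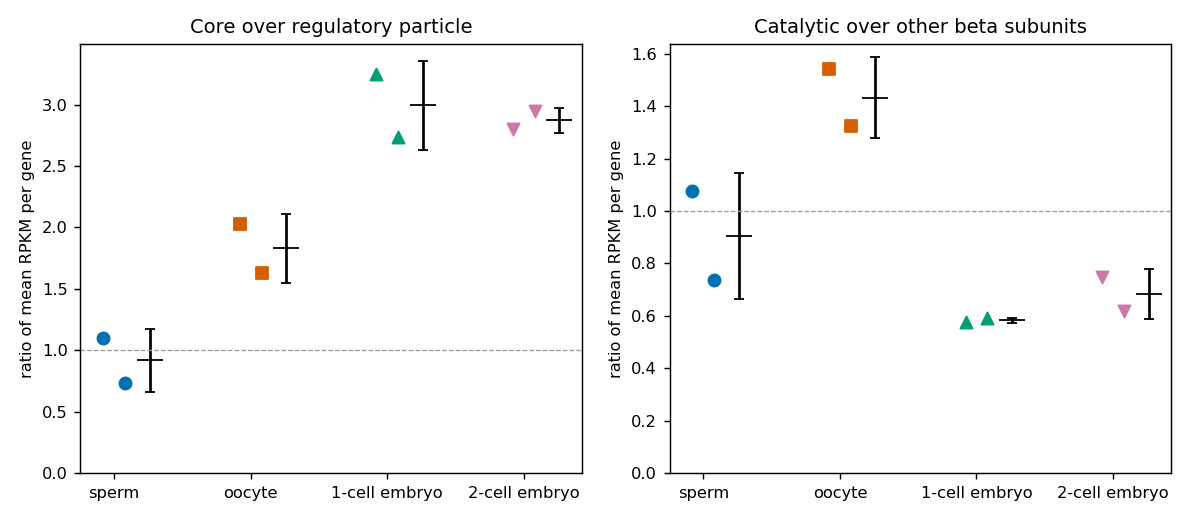
Ratio of mean RPKM per gene in each library, core over regulatory particle (left) and the catalytic genes pbs-1, pbs-2 and pbs-5 over the other 4 beta genes (right); symbols are libraries, bars the mean and SD (n = 2), the dashed line a ratio of 1. The left ratio is lowest in sperm and highest in embryos, which overlap oocytes when medians replace means, and the right ratio is highest in oocytes.

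After fertilization, in 1-cell embryos against oocytes, 3 of the 32 members fell and 0 rose, all 3 in the base of the regulatory particle (a call needs an adjusted p under 0.05 in limma and a log2 difference of at least 1). Of all genes tested 5.92% were called lower and 17% higher. The ATPase gene rpt-6 (Y49E10.1) had 86.8 and 109 RPKM in 1-cell embryos, against 329.9 and 329.6 in oocytes (log2 -1.75, SE 0.30, adjusted p = 0.00984). The scaffold rpn-1 (T22D1.9), which docks ubiquitin shuttles, had 78.1 and 157 RPKM in 1-cell embryos, against 349.5 and 413 in oocytes (log2 -1.77, SE 0.41, adjusted p = 0.0212). The other scaffold, rpn-2 (C23G10.4), had 85.3 and 123 RPKM in 1-cell embryos, against 263 and 321 in oocytes (log2 -1.50, SE 0.33, adjusted p = 0.0191). For each of the 3 both embryo libraries lay below both oocyte libraries. Values are relative to all RNA of a library, and in bulk samples fewer cells of a type and less RNA per cell cannot be told apart. With oocyte replicate 1 or oocyte replicate 2 left out 0 of the 3 passed (and 6 of all genes tested, all lower), and without 1-cell replicate 1 only rpt-6 did. With only the compared groups in the fit the call of rpn-1 ended (adjusted p = 0.0549 in limma), as it did with no filter on low values. With the replicate number as a block in those groups alone all 3 ended, but that fit called 0 of all 11935 genes, so it cannot set these 3 apart.

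No other member was called in this comparison. At an unadjusted p under 0.05 in limma there were 7 members, with pas-2, pas-3 and pas-5 higher and rpt-5, rpt-6, rpn-1 and rpn-2 lower. Of the 11935 genes tested 4566 (38.3%) were under this p, a larger share than of the members. The median log2 difference was 0.81 for the 6 alpha genes, 0.23 for the 7 beta genes, -0.34 for the 6 ATPases, -1.07 for the 4 other base genes and -0.31 for the 9 lid genes, against 0.35 for all genes tested. The largest value was that of pas-5 (F25H2.9), with 1391 and 1852 RPKM in 1-cell embryos, against 847 and 683 in oocytes (log2 1.08, adjusted p = 0.0814). The beta subunit pbs-4 (T20F5.2) had 1059 and 1931 RPKM in 1-cell embryos, against 752 and 697 in oocytes (log2 0.98, adjusted p = 0.152). For 6 of 13 core genes, these among them, both embryo libraries were above both oocyte libraries, and for 2 (pbs-1 and pbs-5) both were below. Of 19 regulatory genes 2 (rpn-6.2 and rpn-12) were above and 7 below. Among all genes tested 53.3% were above and 22.1% below. The ATPase rpt-5 (F56H1.4) had 217 and 266 RPKM in 1-cell embryos, against 489 and 472 in oocytes (log2 -0.999, adjusted p = 0.0647).

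The difference followed transcript length, among the members as across the table. Regulatory genes have longer transcripts (median 1493 nucleotides, 855 to 3171) than core genes (median 878, 801 to 1059). Over the 32 members the log2 difference fell by 1.00 per doubling of length (Pearson's r = -0.67, Spearman's rho = -0.58, a description over genes of the same libraries), and over 6643 well expressed genes the slope was -0.62. With each library's trend with length removed, the core median was -0.70 and the regulatory median -0.79, and the gap between them was 0.090, against 0.66 as deposited. In that fit the median of all genes was -0.01, and 5 members were lower and 0 higher, against 10.6% and 6.35% of all genes. They were rpt-6 (log2 -2.15, adjusted p = 0.00577), pbs-1 (-1.79, adjusted p = 0.0219), rpn-1 (-1.33, adjusted p = 0.0430), rpt-5 (-1.31, adjusted p = 0.0289) and rpn-2 (-1.07, adjusted p = 0.0490). The corrected values of rpn-1 and rpn-2 were smaller than those as deposited, and that of rpt-6 was larger.

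**Figure D3:**
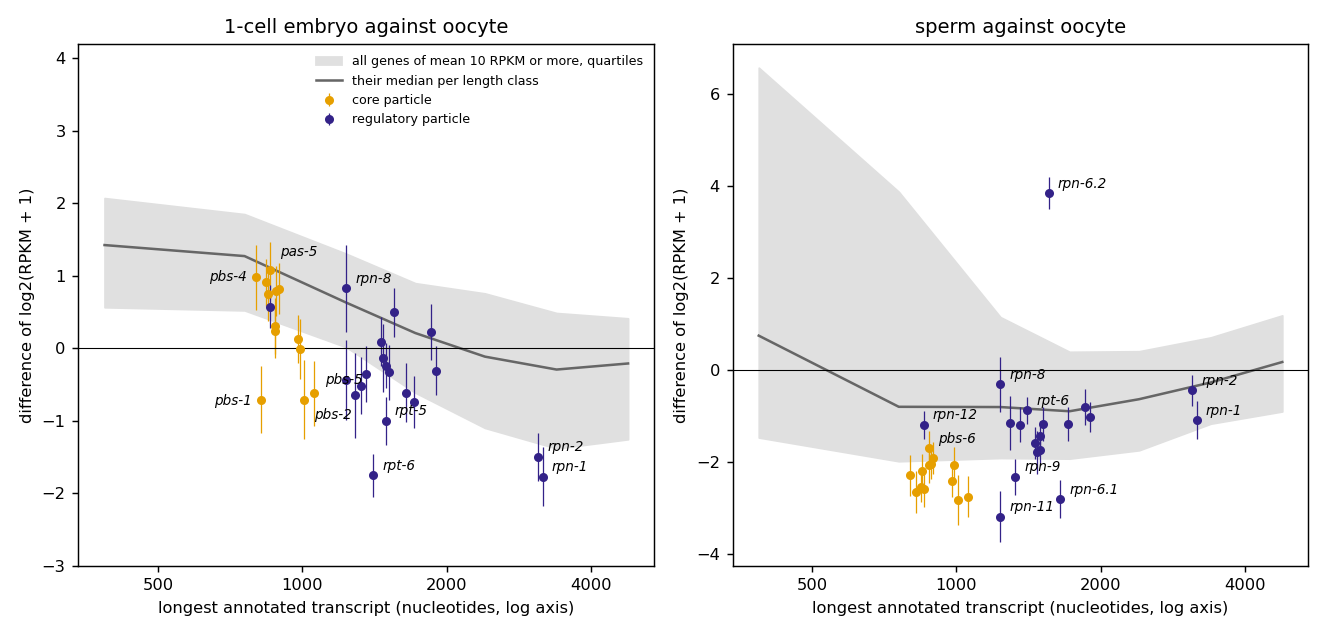
Difference of log2(RPKM + 1) between 1-cell embryos and oocytes (left) and between sperm and oocytes (right) against transcript length (log axis); points are subunit genes with the SE, the line and band the median and quartiles of well expressed genes per length class. On the left rpt-6, rpn-1 and rpn-2 lie lowest, and on the right the core genes lie below the line together and rpn-6.2 lies far above it.

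The catalytic beta subunits had the highest mean RPKM of the beta genes in oocytes and the lowest in 1-cell embryos. This order of means did not hold in each library. In oocyte replicate 2 pbs-4 (697 RPKM) lay above pbs-2 and pbs-5, and in 1-cell replicate 1 pbs-1 lay above pbs-6 (647 RPKM) and pbs-7 (586 RPKM). pbs-1 (K08D12.1), which cuts after acidic residues, had 684 and 654 RPKM in 1-cell embryos, against 1246 and 957 in oocytes (log2 -0.71, adjusted p = 0.309). pbs-2 (C47B2.4), which cuts after basic residues, had 347 and 710.2 RPKM in 1-cell embryos, against 946 and 695 in oocytes (log2 -0.71, adjusted p = 0.398). pbs-5 (K05C4.1), which cuts after hydrophobic residues, had 360.3 and 647 RPKM in 1-cell embryos, against 846 and 654 in oocytes (log2 -0.62, adjusted p = 0.371). None of the 3 passed on the values as deposited, and the other 4 beta genes had log2 differences of 0.23 to 0.98. Of these 3 catalytic genes the 1-cell and oocyte values overlapped for pbs-2 alone. Of the other 4 beta genes they overlapped for pbs-6 and pbs-7. The ratio of catalytic to other beta genes was 1.07 and 0.735 in sperm, 1.54 and 1.32 in oocytes, 0.576 and 0.590 at the 1-cell stage and 0.750 and 0.617 at the 2-cell stage. With the length trend removed pbs-1 was the only beta gene called.

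In 2-cell embryos the same base genes were low. Against oocytes 4 members fell and 0 rose, where 5.17% of all genes fell and 16.4% rose. rpt-6 had 89.5 and 76.4 RPKM in 2-cell embryos, against 329.9 and 329.6 in oocytes (log2 -1.98, adjusted p = 0.00980). rpn-1 had 72.4 and 97.0 RPKM in 2-cell embryos, against 349.5 and 413 in oocytes (log2 -2.17, adjusted p = 0.0141). For rpn-2, at 86.7 and 99.96 RPKM in 2-cell embryos, the log2 difference was -1.63 (adjusted p = 0.0170). The fourth was rpt-5, with 249 and 186 RPKM in 2-cell embryos, against 489 and 472 in oocytes (log2 -1.15, adjusted p = 0.0435). At an unadjusted p under 0.05 there were 7 members, these 4 and rpn-5 lower and pas-2 and pas-3 higher. Of the 11935 genes tested 4545 (38.1%) were under this p, again a larger share than of the members. Both 2-cell libraries were below both oocyte libraries for 14 members and above for 8, against 20.5% and 55.8% of all genes. With the length trend removed these 4 were called together with pbs-1, the alpha subunit pas-7 and the lid subunit rpn-5 (9.26% of all genes lower, 5.8% higher). Without 2-cell replicate 1 only rpt-6 was called, and without 2-cell replicate 2, oocyte replicate 1 or oocyte replicate 2 none of the 4 was; of all genes limma then called 185 higher and 118 lower, 0 higher and 11 lower, and 0 higher and 7 lower. The call of rpt-5 also ended without either 1-cell library, with no filter on low values and with the replicate number as a block in the compared groups alone. The oocyte libraries are those of the 1-cell comparison, so these results share them.

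Between 2-cell and 1-cell embryos no member was called. limma called 0.0168% of all genes higher and 0% lower. At an unadjusted p under 0.05 there were 0 of 32 members and 78 of 11935 genes, and with the replicate number as a block in these 2 groups alone 1 member (pas-7) and 883 genes. Log2 differences of members ran from -0.47 (pas-7) to 0.41 (rpn-10), with SE of 0.30 to 0.60, and none passed in this fit, which does not pair the libraries. Deviations of same-numbered libraries of these stages had a Pearson's r of 0.88 over all genes, so that these SE can overstate the error of a difference within a number. The median was -0.13 for the members and 0.03 for all genes. pas-7 (ZK945.2) had 405 and 466 RPKM in 2-cell embryos, against 527 and 689.8 in 1-cell embryos, with both 2-cell libraries below both 1-cell libraries. This was so for 4 members and the reverse for 0, against 6.81% and 9.39% of all genes. Within replicate number 1, 14 members were lower at the 2-cell stage (median 0.05), and within number 2, 31 were (median -0.18). Of the members 14 were lower in both and 1, rpn-10, was higher in both. The shares of all genes within a number were not counted.

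Replicates of the embryo stages differed with the same sign in most members. In 1-cell embryos 25 of 32 members were higher in replicate 2 than in replicate 1, in 2-cell embryos 21 were, and the sign was the same in both stages for 28. Across the whole table the gaps of the embryo stages also went together. Deviations of same-numbered libraries of these stages had a Pearson's r of 0.88 over all genes and 0.89 over the members. The shares of all genes with these signs were not counted. rpn-8 (R12E2.3), the partner of the deubiquitinase, had 500.1 and 173 RPKM in 1-cell embryos and 427 and 169 in 2-cell embryos, high in replicate 1 of both. In oocytes it had 137 and 199 RPKM. rpn-10 (B0205.3), a ubiquitin receptor, had 105 and 342 RPKM in 1-cell embryos and 175 and 366 in 2-cell embryos, high in replicate 2 of both. In oocytes it had 291 and 306 RPKM, so that replicate 1 of both embryo stages lay below and replicate 2 above the oocyte libraries. The median gap over members was 0.47 log2 in 1-cell embryos, against -0.06 over all genes. In 2-cell embryos it was 0.20, against -0.10 over all genes, so that the members' direction was not that of the whole table. The labels give no batch, and the source of these gaps was not tested.

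**Figure D4:**
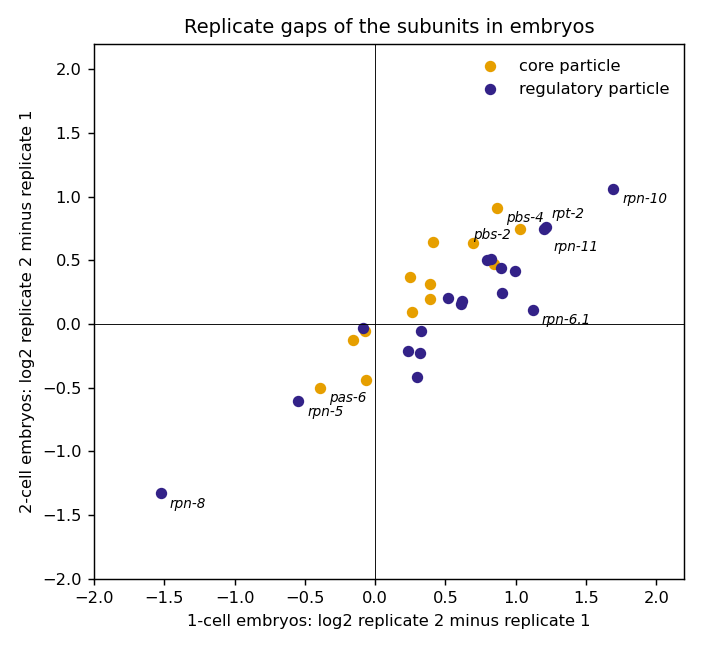
Log2 difference of replicate 2 minus replicate 1 of each subunit gene in 1-cell embryos (x axis) and 2-cell embryos (y axis); each point is 1 gene. The sign is the same in both stages for 28 of 32 genes, with rpn-8 at the lower left and rpn-10 at the upper right.

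Sperm held less proteasome RNA per library than oocytes. Of the 32 members 26 fell and 1 rose, against 24.6% lower and 36.7% higher among all genes tested. All 13 core genes fell. The median log2 difference was -2.29 for core genes, -1.17 for regulatory genes and 0.16 for all genes. For 31 members both sperm libraries lay below both oocyte libraries and for 1 above, as was so for 40.2% and 46.6% of all genes. This comparison uses the same oocyte libraries as those of the embryos.

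Among the alpha genes the log2 differences ran from -2.58 to -1.91. pas-5 had 156 and 102 RPKM in sperm, against 847 and 683 in oocytes (adjusted p = 0.000628), and pas-3 (Y110A7A.14), the lowest alpha gene, 102 and 67.9 RPKM in sperm, against 338 and 293 in oocytes (adjusted p = 0.00178). pas-2 (D1054.2) had 125 and 96.4 RPKM in sperm, against 670.4 and 626 in oocytes (log2 -2.55, SE 0.32, adjusted p = 0.000245). The rest of the alpha ring lay between these. pas-4 (C36B1.4) had 136 and 83.0 RPKM in sperm, against 435 and 441 in oocytes, pas-6 (CD4.6) 228 and 119.3 in sperm, against 745 and 650.4 in oocytes, and pas-7 123 and 85.3 in sperm, against 545 and 556 in oocytes. For every alpha gene both sperm libraries lay below both oocyte libraries.

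Among the beta genes the catalytic ones had the lowest log2 differences. pbs-2 had 174 and 74.6 RPKM in sperm, against 946 and 695 in oocytes (log2 -2.82, SE 0.54, adjusted p = 0.00230), pbs-5 a log2 difference of -2.75 and pbs-1 of -2.65. pbs-6 (C02F5.9) had 244 and 141 RPKM in sperm, against 663 and 547 in oocytes (log2 -1.69, adjusted p = 0.00397), the smallest difference of a core gene. pbs-4 had 175 and 125 RPKM in sperm, against 752 and 697 in oocytes, and pbs-3 and pbs-7 had log2 differences of -2.19 and -2.07.

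The core genes also differed between the sperm libraries. All 13 were lower in replicate 2 than in replicate 1, with summed levels of 2203 RPKM in replicate 1 and 1299 in replicate 2, and so were 16 of 19 regulatory genes (2930 and 2581 RPKM). The median gap was -0.71 log2 for core and -0.17 for regulatory genes. Over all genes tested it was -0.02, with a median absolute gap of 0.58. The shares of all genes lower in replicate 2 were not counted. The sums of the oocyte markers and of the intestine and yolk markers were higher in the same replicate 1. The sums of the sperm, muscle and cuticle markers were higher in replicate 2, though single markers such as gsp-3 and unc-54 were not. Their part in the core levels was not tested. Between the oocyte libraries the median gap was -0.20 log2 for core and 0.18 for regulatory genes, against 0.01 over all genes. The 13 core calls held with either sperm library left out.

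Regulatory genes were less uniform in sperm. Among the ATPases 5 of 6 were called lower, from rpt-2 (F29G9.5), with 166 and 128 RPKM in sperm, against 496 and 514 in oocytes (log2 -1.79, adjusted p = 0.0111), to rpt-1 (C52E4.4), with 243 and 218 RPKM in sperm, against 482 and 561 in oocytes (log2 -1.17, adjusted p = 0.0259). rpt-6 stayed short of the fold threshold, with 185 and 174 RPKM in sperm, against 329.9 and 329.6 in oocytes (log2 -0.88, adjusted p = 0.0334). Among the other base genes the ubiquitin receptor rpn-13 (C56G2.7) fell, with 102 and 79.0 RPKM in sperm, against 253 and 232 in oocytes (log2 -1.43, adjusted p = 0.00433), and so did rpn-1 (log2 -1.09, adjusted p = 0.0459). rpn-2 had 233 and 196 RPKM in sperm, against 263 and 321 in oocytes, and did not pass (log2 -0.44, adjusted p = 0.277). Nor did rpn-10 (log2 -1.15, adjusted p = 0.121), whose 132 and 136 RPKM in sperm lay below the 291 and 306 in oocytes.

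In the lid the deubiquitinase rpn-11 (K07D4.3) had 109 and 47.2 RPKM in sperm, against 731 and 598 in oocytes (log2 -3.18, SE 0.56, adjusted p = 0.00138), the lowest log2 difference of any member. rpn-9 (T06D8.8), a structural lid subunit, had 137 and 98.3 RPKM in sperm, against 604 and 559 in oocytes (log2 -2.31). The value of rpn-9 lay in the range of the core genes and that of rpn-11 below it. The lid subunits rpn-5, rpn-7 and rpn-12 had smaller differences, with log2 values of -1.17, -1.02 and -1.19. The structural lid gene rpn-3 (log2 -0.80, adjusted p = 0.107) did not pass, nor did rpn-8, with 137 and 129.5 RPKM in sperm, against 137 and 199 in oocytes (log2 -0.31, adjusted p = 0.677).

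The gap between the particles in sperm did not shrink with the length trend removed. Over the members the difference rose with length (Spearman's rho = 0.58), while over 6643 well expressed genes the slope was -0.70 per doubling. The median of these genes was -0.80, -0.80 and -0.89 at 500 to 1000, 1000 to 1500 and 1500 to 2000 nucleotides. Only the members rpn-1 and rpn-2 are longer. The upper quartile was 6.57 up to 500 nucleotides and 3.88 at 500 to 1000. The slope was not seen in these medians, so the removal cannot settle the part of length. With the trend removed the core median was -2.91 and the regulatory median -1.34, a gap of -1.56, against -1.11 as deposited. All 13 core genes kept their calls, and 24 members were lower and 1 higher (33.2% and 32% of all genes), the calls of rpn-1 and rpn-7 having ended. With median-of-ratios scaling, under which the median of all genes stood at 0.77, 15 members were lower and 1 higher. Of all 11935 genes tested 1929 were then lower and 5263 higher. Of the core genes 12 were still called, all except pbs-6, while the 5 ATPase calls and those of rpn-1, rpn-5, rpn-7, rpn-12 and rpn-13 ended. Leaving out a sperm or an oocyte library kept between 20 and 24 of the 27 calls, and rpt-1, rpt-3 and rpn-1 lost theirs each time.

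The RPN-6 paralogs differed in opposite directions. RPN-6 is a lid subunit that clamps the lid to the core, and the worm has a pair of genes for it. rpn-6.2 (F59B2.5) was the only member that rose in sperm, with 95.9 and 126 RPKM in sperm, against 5.75 and 7.75 in oocytes (log2 3.85, SE 0.34, adjusted p = 2.9e-05). rpn-6.1 (F57B9.10) had 44.2 and 36.5 RPKM in sperm, against 273 and 302 in oocytes (log2 -2.81, SE 0.41, adjusted p = 0.000532). The groups did not overlap for either gene. rpn-6.2 made up 68.5% and 77.5% of the summed RPKM of the pair in sperm, 2.06% and 2.51% in oocytes, 6.62% and 3.74% at the 1-cell stage and 5.65% and 4.49% at the 2-cell stage. The sum of the pair was 140.1 and 162 RPKM in sperm, against 278 and 309.6 RPKM in oocytes. Both calls held in each fit run, with any library left out, each scaling and the length trend removed.

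**Figure D5:**
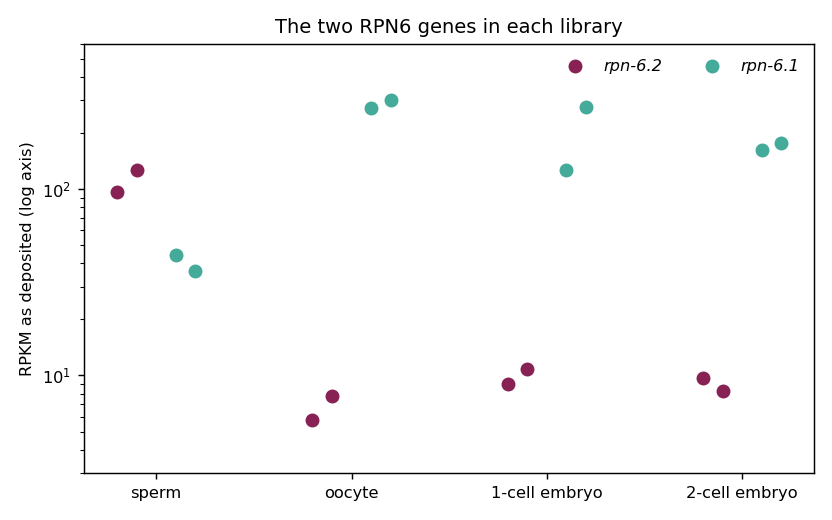
RPKM as deposited (log axis) of rpn-6.2 and rpn-6.1 in each library; each point is 1 library, 2 per group. In sperm rpn-6.2 lies above rpn-6.1, and in the other groups rpn-6.1 lies above rpn-6.2.

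In embryos rpn-6.2 had 8.98 and 10.8 RPKM at the 1-cell stage, against 5.75 and 7.75 in oocytes (log2 0.50, adjusted p = 0.339), and 9.73 and 8.27 RPKM at the 2-cell stage. The sperm markers summed to 78.2 and 77.2 RPKM in 1-cell embryos. Whether reads of one paralog were counted for the other is not known, since the counting is not given in the sources used here. For 11 members an exon overlaps one of another annotated gene, on the opposite strand for 10 of them, rpt-6 and rpn-11 among these. The library protocol does not mark strand, so reads of such neighbours cannot be told apart.

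Genes that work beside the proteasome were counted from 8 lists. The CDC-48 segregase unfolds ubiquitin-tagged proteins ahead of the proteasome. Of its 11 genes 5 fell and 0 rose in 1-cell embryos against oocytes, where 5.92% of all genes fell and 17% rose. They were cdc-48.1, cdc-48.2 and the cofactors ubxn-1, ubxn-2 and ubxn-3. The list median was -0.38, against 0.35 for all genes. cdc-48.1 had 186 and 96.8 RPKM in 1-cell embryos, against 582 and 837 in oocytes (log2 -2.37, adjusted p = 0.0137). ubxn-1 had 99.97 and 81.8 RPKM in 1-cell embryos, against 429 and 388 in oocytes (log2 -2.16, adjusted p = 0.00863). The same 5 fell in 2-cell embryos against oocytes (5.17% of all genes), and 4 of them, all except cdc-48.2, in sperm against oocytes (24.6% of all genes). With the length trend removed 4 were lower at the 1-cell stage (10.6% of all genes).

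The transcription factor SKN-1 raises proteasome genes when the protease is impaired, after its membrane-bound form is released with the help of SEL-1 and SEL-11 and processed by PNG-1 and DDI-1. Of these 5 genes 2 fell in 1-cell embryos against oocytes (5.92% of all genes), with a list median of -1.47, against 0.35 for all genes. sel-11 had 107 and 93.4 RPKM in 1-cell embryos, against 303 and 258 in oocytes (log2 -1.47, adjusted p = 0.0264), and png-1 11.4 and 19.7 RPKM in 1-cell embryos, against 46.4 and 46.3 in oocytes (log2 -1.56, adjusted p = 0.0281). skn-1 itself had 43.7 and 21.3 RPKM in 1-cell embryos, against 96.7 and 83.1 in oocytes (log2 -1.52, adjusted p = 0.0509). In sperm against oocytes 3 fell (24.6% of all genes), skn-1, png-1 and sel-11. With the length trend removed 1 of the 5 did, sel-11, where 33.2% of all genes fell.

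In the other lists, in 1-cell embryos against oocytes, 0 of 8 proteasome-bound factors were called, 1 rose and 1 fell of 6 ubiquitin and E1 genes, 2 rose and 2 fell of 17 tested E2 enzymes, 3 rose and 3 fell of 12 cullin ligase genes, and 1 rose of 8 genes of the anaphase-promoting complex, where 17% of all genes rose and 5.92% fell. uba-2, of the SUMO-activating enzyme, had 28.2 and 44.9 RPKM in 1-cell embryos, against 183 and 187 in oocytes (log2 -2.34, adjusted p = 0.00923). rbx-1, the RING subunit of cullin ligases, had 1442 and 1762 RPKM in 1-cell embryos, against 718 and 548 in oocytes (log2 1.34, adjusted p = 0.0441). apc-11, the RING subunit of the anaphase-promoting complex, had 441 and 372 RPKM in 1-cell embryos, against 104 and 101 in oocytes (log2 1.98, adjusted p = 0.0138). The genes that rose in these lists have transcripts of 435 to 863 nucleotides. With the length trend removed 0 of them were called higher (6.35% of all genes). Of the 6 genes of the COP9 signalosome, a complex built like the lid, 1 rose, csn-2, with 70.6 and 118 RPKM in 1-cell embryos, against 26.9 and 24.6 in oocytes (log2 1.79, adjusted p = 0.0146), also with the length trend removed. The signalosome's median was 0.75, against -0.31 for the 9 lid genes. Between 2-cell and 1-cell embryos 0 genes of the 8 lists were called.

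In sperm against oocytes most called genes of the pathway were lower. Of 17 tested E2 enzymes 11 fell and 2 rose (ubc-19 and ubc-24), of 12 cullin ligase genes 8 fell and 0 rose, of 6 ubiquitin and E1 genes 2 fell and 1 rose, of the proteasome-bound factors 2 fell, of the anaphase-promoting complex 3 fell and of the signalosome 1 fell. Of all genes 24.6% fell and 36.7% rose. The counts of 2 of 8 proteasome-bound factors and 1 of 6 signalosome genes are near or under the share that fell. Those of 2 of 6 ubiquitin and E1 genes and 3 of 8 anaphase-promoting complex genes lie within about 1 gene of it. With the length trend removed 33.2% of all genes were lower. In that fit 13 of 17 E2 enzymes and 8 of 12 cullin ligase genes were lower. So were 2 of 6 ubiquitin and E1 genes, 3 of 8 proteasome-bound factors, 2 of 8 anaphase-promoting complex genes and 1 of 6 signalosome genes. rad-23, a shuttle that carries ubiquitin-tagged proteins to the proteasome, had 163 and 107 RPKM in sperm, against 491 and 540.1 in oocytes (log2 -1.96, adjusted p = 0.00426). uba-1, the E1 enzyme of ubiquitin, had 139 and 97.9 RPKM in sperm, against 357 and 495 in oocytes (log2 -1.84, adjusted p = 0.00190). The E2 enzyme gene let-70 had 410.5 and 261 RPKM in sperm, against 1157 and 1088 in oocytes (log2 -1.78, adjusted p = 0.00481). All 3 fell, with both sperm libraries below both oocyte libraries. ubq-2, a fusion of ubiquitin with a ribosomal protein, rose, with 2599 and 1641 RPKM in sperm, against 293 and 234 in oocytes (log2 2.98, adjusted p = 0.000300).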

How the data were processed

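Polyadenylated RNA was measured in 8 libraries, 2 per group, grouped by their titles. The deposited values are RPKM computed by the authors. BWA is named in the submitters' processing notes; its version, the genome build, the annotation and the counting are not given in the sources used here. Sequence names were matched to symbols and longest transcripts of a WBcel235 annotation (18746 of 21774 genes matched), and no coordinates are given. Tested were the 11935 genes that reached 1 RPKM in 2 or more libraries (947 of them without a length). Log2 values were taken after adding 1 to the RPKM, which makes the differences of low genes too small. limma 3.58.1 (R 4.3.3) fitted 1 mean per group over all 4 groups with a mean-dependent prior variance (4 residual degrees of freedom). Tests were two-sided, with Benjamini-Hochberg adjustment per comparison over all genes tested, and called means an adjusted p under 0.05 and at least 1 log2. The length trend was a natural spline with 4 degrees of freedom per library, fitted where the mean reached 10 RPKM. The scripts were tested on simulated data. Members, lists and tests were chosen with earlier results of these data known. Values are given for called members, the catalytic subunits, the extremes of each role, and up to 3 called genes per list. The alternatives covered the pseudocount, the filter, scaling, length, the groups in the fit, the variance trend, a replicate block and each library left out.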

Additional observations from a re-analysis of the deposited data

How the results depend on the processing

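Calls of members in 1-cell embryos against oocytes numbered 3, and 5 with median-of-ratios scaling or the length trend removed. Of all genes tested 1082 were lower and 841 higher with that scaling (11935 genes), and 1160 and 698 with the trend removed (10988 genes). In 2-cell embryos against oocytes members called numbered 4, and 7 with the length trend removed (of all genes 1018 lower and 637 higher). In sperm against oocytes they numbered 27, and 16 with median-of-ratios scaling (of all genes 1929 lower and 5263 higher). Leaving out 1 library gave 0 to 3, 0 to 4 and 20 to 27 calls in these comparisons; a group left with 1 library is assumed to vary like the others. The member median in 1-cell embryos against oocytes was -0.19 as deposited, -0.62 with libraries scaled to a common sum, -0.70 with median-of-ratios scaling, -0.88 with quantile normalization, -0.73 with the length trend removed and -0.43 to 0.14 with 1 library left out, the positive value being without 1-cell replicate 1. In 2-cell embryos against oocytes it was -0.25 as deposited and -0.61, -0.84, -0.83 and -0.81 under the same 4 alternatives, and -0.42 to -0.07 with 1 library left out, the end values being without 2-cell replicate 2 and without 2-cell replicate 1. In sperm against oocytes it was -1.76 as deposited, -2.33 with a common sum and -1.002 with median-of-ratios scaling. Between 2-cell and 1-cell embryos it was -0.13, and -0.39 to 0.13 with 1 library left out, positive without 1-cell replicate 2. The core minus regulatory median was 0.66 in 1-cell embryos against oocytes, 0.55 in 2-cell embryos against oocytes and -1.11 in sperm, and after that removal 0.090, 0.050 and -1.56. Between 2-cell and 1-cell embryos it was -0.02, 0.059 with quantile normalization, 0.14 after removal of the length trend and -0.11 to 0.14 with 1 library left out. The cause of these shifts was not tested.

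The scaling also moved the whole table. The median of all genes in 1-cell embryos against oocytes was 0.35 as deposited, 0.15 with a common sum, 0.11 with median-of-ratios scaling, 0.05 after quantile normalization and -0.01 after removal of the length trend, and the members' median relative to it was -0.53, -0.77, -0.81, -0.93 and -0.72. Of all calls 74.2%, 49.7%, 43.7%, 38.5% and 37.6% were higher. In 2-cell embryos against oocytes these shares were 76.1%, 57.3%, 35.9%, 35.6% and 38.5%, and in sperm 59.8%, 50%, 73.2%, 37.4% and 49.1%.

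The replicate numbers do not pair the samples by the labels. Deviations of same-numbered libraries over all genes had a Pearson's r of 0.88 between 2-cell and 1-cell embryos, and against oocytes of -0.17 for 1-cell embryos, -0.07 for 2-cell embryos and -0.07 for sperm. Over the 32 members this r was 0.89 between the embryo stages. Against oocytes it was -0.25 for 1-cell embryos, -0.38 for 2-cell embryos and 0.79 for sperm. With the replicate number as a block in the fit of all groups, members called numbered 3, 0, 4 and 27, as without it, in 1-cell embryos against oocytes, 2-cell against 1-cell embryos, 2-cell embryos against oocytes and sperm against oocytes. Of all genes the block fit called 3230, 2, 3162 and 7573, against 2740, 2, 2577 and 7313 without it. In alternatives chosen after seeing the data, the block with the length trend removed gave 5 and 7 calls of members in 1-cell and 2-cell embryos against oocytes, with medians of -0.73 and -0.81. Of all genes it called 2311 and 2060. The block with only the compared groups gave 0 calls in 1-cell embryos against oocytes, among the members (smallest adjusted p = 0.0550 in limma) and among all 11935 genes.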
